A study of Homo sapiens with 12 samples.

Results

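Kinesins are motor proteins that walk along microtubules or take them apart, using ATP. The mitotic kinesins are the members of this family that build the spindle, move and attach chromosomes, and organise the midzone where the daughter cells part. Their mRNAs are known to be low in resting cells and to peak late in the cell cycle, so they are often read together with other cell division genes. The 10 genes described here are KIF11, KIF14, KIF15, KIF18A, KIF20A, KIF23, KIF2C, KIF4A, KIFC1 and CENPE, all read by array probe sets that GEO's platform annotation assigns to 1 of these symbols alone. They had 13 probe sets among 41091 usable ones, which stood for 10 of 19775 genes. After the filter on low values, all 10 genes and 12 of the 13 probe sets were left among 13225 genes and 24650 probe sets.

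The cells were MDA-MB-231, a line from a human breast carcinoma of the triple-negative class, which lacks oestrogen and progesterone receptors and HER2 amplification. They were transfected with siRNA mix 2 or siRNA mix 1, each aimed at YAP (gene YAP1) and TAZ (gene WWTR1) together, or with a control siRNA. All groups received 33 nM siRNA on day 2, fresh medium on day 3 and were collected on day 4, with 4 replicates (A to D) per group and 1 array for each. YAP and TAZ are transcriptional coactivators of the Hippo pathway, and the comparisons ask how their joint loss changes mRNA levels. The siRNA sequences were not used here, and all cells are of 1 line.

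Array medians lay between 5.69 and 5.78 log2. YAP1 averaged 8.09 ± 0.10 log2 with mix 2, 8.15 ± 0.36 with mix 1 and 11.16 ± 0.10 with control siRNA (SD, n = 4 each), and WWTR1 8.95, 9.07 and 11.40. In the control group VIM, CD44 and AXL, which mark this mesenchymal line, were at 14.29, 12.22 and 13.24 log2, while CDH1 (3.98) and PGR (3.56) lay below the filter value of 5.46; ESR1 (6.31) and ERBB2 (7.76) did not. Of 9 markers of leukocytes, endothelial and luminal cells, 5 passed the filter. Those were CD3E and CD14 of leukocytes, PECAM1 and VWF of endothelium and ESR1 of luminal cells, and PTPRC, CDH5, CDH1 and FOXA1 lay below the filter value. CD3E averaged 6.07 log2 with mix 2, 6.08 with mix 1 and 6.17 with control siRNA, and VWF 5.60, 5.52 and 5.57. CD14 and PECAM1 rose with both mixes. CD14 averaged 6.39 log2 with mix 2, 6.27 with mix 1 and 5.15 with control siRNA, and PECAM1 7.88, 8.62 and 6.54. Per array, the mean of the 9 markers was 5.50 to 5.54 log2 with mix 2 and 5.42 to 5.59 with mix 1. With control siRNA this mean of the 9 markers was 5.11 to 5.26. Their part in the kinesin results was not tested.

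All 10 mitotic kinesin mRNAs fell with mix 2 and with mix 1, and in each gene the 8 knockdown arrays lay below the 4 control arrays. The log2 differences from control ran from -4.32 (KIF23) to -1.67 (KIF18A) with mix 2, with a median of -2.62, and from -2.93 (KIF23) to -1.38 (KIF18A) with mix 1, with a median of -1.73. The median over all 13225 genes was 0.03 with mix 2 and 0.005 with mix 1. Standard errors (SE) of the 10 differences were 0.07 to 0.12, and the largest limma adjusted p, that of CENPE, was 2.45e-10 with mix 2 and 2.28e-09 with mix 1. Of all genes tested, 31.9% were called lower with mix 2 and 32.3% with mix 1, and in 23.1% both mixes lay below the control range. The 4 control arrays served for both mixes, so the 2 sets of differences are not independent. In RNA from whole cultures, fewer dividing cells and less kinesin mRNA per cell cannot be told apart.

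**Figure D1:**
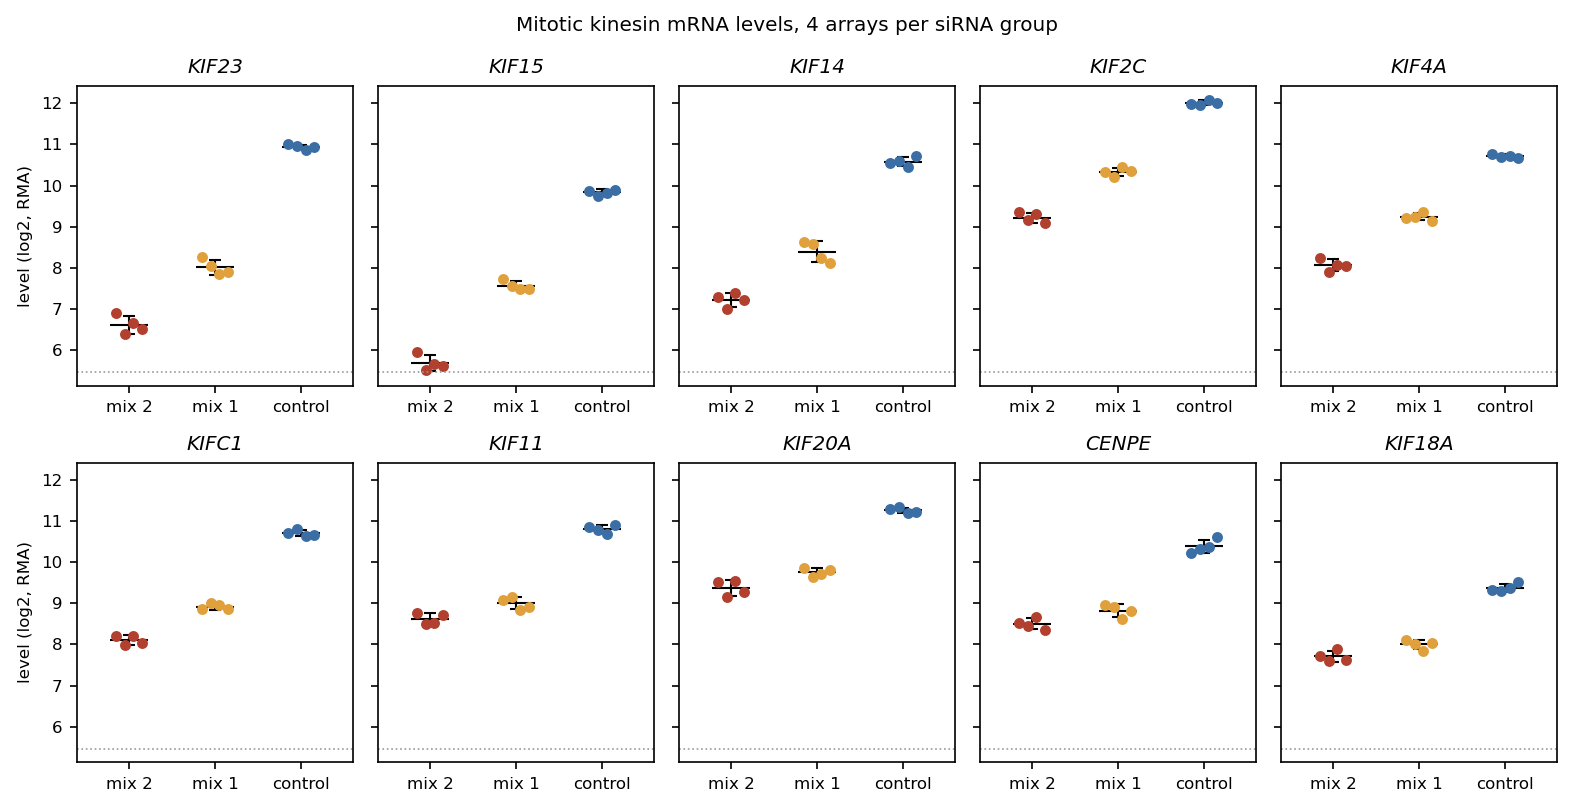
Level of each mitotic kinesin mRNA at its brightest probe set (vertical axis, RMA log2) in the mix 2, mix 1 and control siRNA groups; each dot is 1 array, bars are the mean and SD of 4 arrays, and the dotted line is the filter value of 5.46. In every panel the 8 knockdown arrays sit below the 4 control arrays, and KIF15 with mix 2 comes closest to the dotted line, with a mean of 5.68.

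To show the DNA upstream of these genes, the RefSeq promoter of each (GRCh38.p14, 250 bases before to 50 after the annotated start) was searched on both strands for 4 motifs. These were the cell cycle genes homology region, or CHR element (TTTGAA or TTCGAA), through which the DREAM and MuvB complexes are known to act on late cell cycle genes, and the CCAAT box (CCAAT), bound by NF-Y. The other motifs were an E2F core (GCGGGAA) and the TEAD element (GGAATG), to which TEAD factors bring YAP and TAZ. A 60-base window around 1 match is printed for each gene, so that the matches counted below can be read in their context. Each is written 5′ to 3′ on the gene's own strand, with motif matches in capitals; TTCAAA is the CHR element read on the other strand, and likewise ATTGG is the CCAAT box.
KIF23 (chr15:69414267-69414326, plus strand): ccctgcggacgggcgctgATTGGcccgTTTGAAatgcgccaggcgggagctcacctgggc
KIF15 (chr3:44761732-44761791, plus strand): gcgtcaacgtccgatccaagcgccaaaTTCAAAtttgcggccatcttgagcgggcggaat
KIF14 (chr1:200620718-200620777, minus strand): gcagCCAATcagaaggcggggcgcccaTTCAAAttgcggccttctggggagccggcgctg
KIF4A (chrX:70290043-70290102, plus strand): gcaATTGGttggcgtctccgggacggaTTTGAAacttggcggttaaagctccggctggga
KIFC1 (chr6:33391800-33391859, plus strand): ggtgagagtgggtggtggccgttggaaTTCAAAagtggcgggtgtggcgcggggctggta
KIF11 (chr10:92593075-92593134, plus strand): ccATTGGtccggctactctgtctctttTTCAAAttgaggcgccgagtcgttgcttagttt
KIF18A (chr11:28108134-28108193, minus strand): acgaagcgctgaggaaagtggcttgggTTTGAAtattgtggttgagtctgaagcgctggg
KIF20A (chr5:138178991-138179050, plus strand): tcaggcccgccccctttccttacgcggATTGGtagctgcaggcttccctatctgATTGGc
KIF2C (chr1:44739774-44739833, plus strand): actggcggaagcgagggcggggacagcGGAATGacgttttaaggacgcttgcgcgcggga
CENPE (chr4:103198436-103198495, minus strand): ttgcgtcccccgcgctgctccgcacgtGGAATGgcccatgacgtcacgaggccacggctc

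A CHR match was found in 7 of the 10 promoters, those of KIF23, KIF15, KIF14, KIF4A, KIFC1, KIF11 and KIF18A, and in 16.4% of all 35116 promoter entries of the RefSeq table, or 12% of the 15533 entries of genes tested here. Some genes have several entries. In the promoter entries of the transport kinesins described below, 1 of 29 held a CHR match. All 7 matches of the mitotic kinesins lay between base -55 (KIF23) and base 5 (KIFC1), counted from the start with no base 0. The matches of KIF14 and KIFC1 lay after the start, so 5 of 10 genes had one in the 250 bases before it. A CCAAT box was in 34.6% of all entries, 34.5% of the entries of genes tested and 8 of the 29 transport kinesin entries. Among the mitotic kinesins it was found in 7 of 10 promoters (KIF23, KIF14, KIF4A, KIFC1, KIF11, KIF18A and KIF20A). Of these, 6 (all but KIF20A) also held the CHR match, downstream of the box, as did 6.38% of all entries for the 2 motifs in any order.

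In KIF11, KIF4A and KIF14 the CCAAT box began 25, 24 and 23 bases before the CHR match. This distance was 35 bases in KIF18A, 50 in KIFC1 from the nearer of its 2 boxes, and 9 in KIF23. The E2F core, searched only as GCGGGAA, had no match in the 10 promoters. It was in 6.55% of all entries, 9.26% of the entries of genes tested and 4 of 29 transport kinesin entries. Other spellings of E2F sites and of the CHR element were not searched, so the absence of either is not shown. The TEAD element was found in KIF2C (base -36) and CENPE (base -125), 2 of 10, and in 14% of all entries. It was in 11.6% of the entries of genes tested and 6 of 29 transport kinesin entries. In the 10 promoters no matches overlapped. KIF2C and CENPE had no CHR match in the spellings searched and no CCAAT box in this window. Both genes fell with both mixes, with log2 differences of -2.79 for KIF2C and -1.88 for CENPE with mix 2. Whether motif matches bear on the falls was not tested. Such matches are letters in a sequence, and nothing on the arrays reads the binding of a factor.

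**Figure D2:**
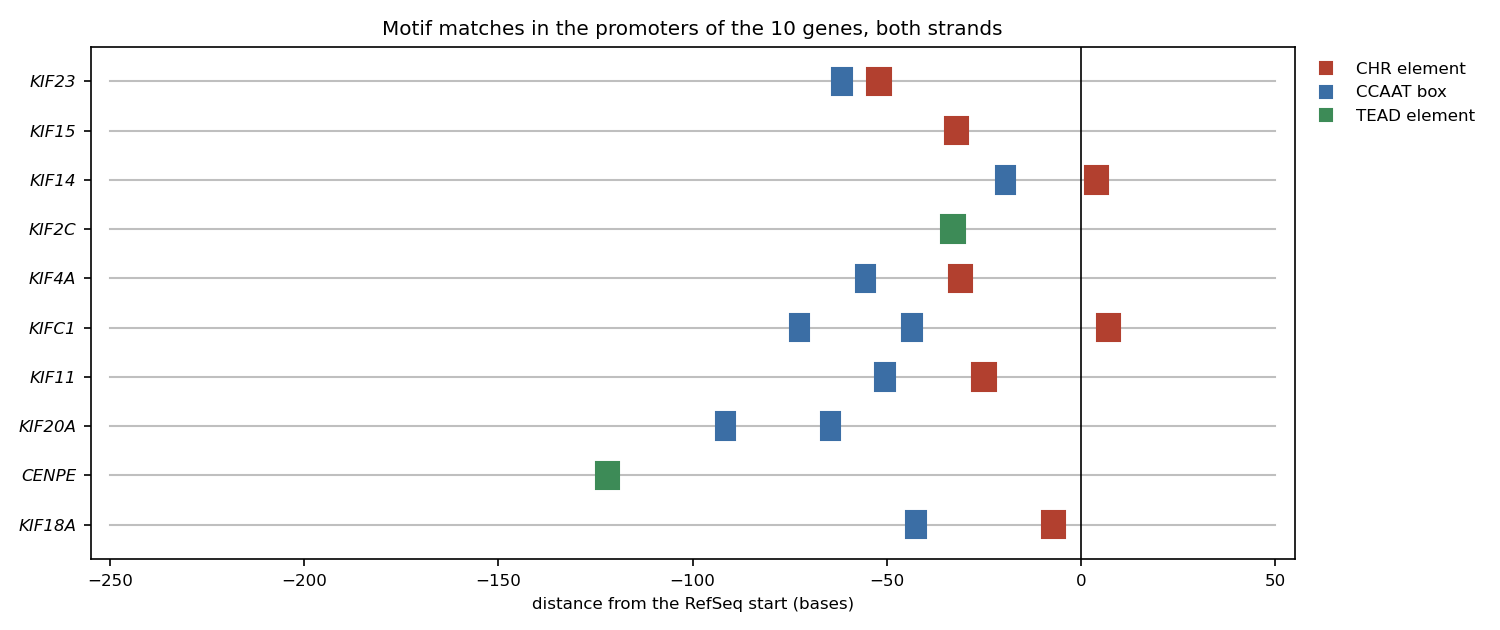
Positions of CHR, CCAAT and TEAD matches on either strand in the RefSeq promoters of the 10 genes (horizontal axis, bases from the start), with genes in order of their fall with mix 2 from top to bottom. The 7 CHR matches sit between base -55 and base 5, and in 6 genes a CCAAT box lies upstream of one.

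KIF11, KIF15 and KIFC1 act on the separation and focusing of spindle poles. KIF11, also called Eg5, is a plus-end-directed motor that pushes the poles apart. KIF11 had 8.77, 8.49, 8.52 and 8.71 log2 with mix 2, 9.09, 9.16, 8.84 and 8.92 with mix 1 and 10.86, 10.77, 10.68 and 10.91 with control siRNA (arrays A to D). The level left was 22% (95% interval 19.4 to 25.1%) of control with mix 2 and 28.7% (95% interval 25.2 to 32.6%) with mix 1, so the groups did not overlap and mix 2 was the lowest. KIF15, a motor that can hold the spindle bipolar when KIF11 is impaired, had 5.95, 5.51, 5.66 and 5.62 log2 with mix 2, 7.72, 7.57, 7.49 and 7.50 with mix 1 and 9.88, 9.74, 9.83 and 9.90 with control siRNA. It fell more than KIF11, to 5.62% (95% interval 4.94 to 6.40%) of control with mix 2 and 20.8% (95% interval 18.2 to 23.6%) with mix 1. With mix 2 the KIF15 arrays lay close to the filter value, where the size of a fall may be understated.

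KIFC1, also called HSET, walks to the minus end, bundles microtubules and clusters surplus centrosomes in cancer cells. KIFC1 had 8.20, 7.98, 8.21 and 8.03 log2 with mix 2, 8.85, 9.00, 8.96 and 8.87 with mix 1 and 10.70, 10.80, 10.64 and 10.66 with control siRNA. The level left was 16.6% (95% interval 15 to 18.3%) of control with mix 2 and 29.1% (95% interval 26.3 to 32.2%) with mix 1, and the replicates of each group were close together, with SDs of 0.12, 0.07 and 0.07. Its probe set, like the brightest ones of KIF18A and KIF23 and the second one of KIF2C, is of a class that may cross-hybridise with relatives of its gene.

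CENPE, KIF18A and KIF2C work on chromosomes and on the microtubule ends that hold them. CENPE is a kinetochore motor that carries chromosomes to the spindle equator, and KIF18A damps the swinging of chromosomes there. CENPE had 8.52, 8.45, 8.67 and 8.35 log2 with mix 2, 8.96, 8.90, 8.61 and 8.81 with mix 1 and 10.23, 10.31, 10.37 and 10.61 with control siRNA. KIF18A had 7.72, 7.60, 7.89 and 7.62 log2 with mix 2, 8.11, 8.02, 7.84 and 8.03 with mix 1 and 9.32, 9.31, 9.36 and 9.52 with control siRNA. These were among the smaller falls: CENPE kept 27.1% (95% interval 23.5 to 31.3%) of control with mix 2 and 33.9% (95% interval 29.4 to 39.2%) with mix 1, and KIF18A kept 31.4% (95% interval 27.9 to 35.4%) and 38.5% (95% interval 34.2 to 43.3%). In each of the 2 genes the mix 2 and mix 1 arrays overlapped, while both lay below control.

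KIF2C, also called MCAK, does not walk but takes microtubules apart, and it helps to free wrongly attached chromosomes. KIF2C had 9.35, 9.16, 9.30 and 9.08 log2 with mix 2, 10.34, 10.22, 10.45 and 10.35 with mix 1 and 11.98, 11.97, 12.09 and 12.02 with control siRNA at its brighter probe set. The groups stood clearly apart, with 14.4% (95% interval 13 to 16%) of control left with mix 2 and 31.3% (95% interval 28.2 to 34.8%) with mix 1. The other KIF2C probe set had 7.36, 7.19, 7.37 and 7.03 log2 with mix 2, 8.42, 8.38, 8.49 and 8.39 with mix 1 and 10.19, 10.30, 10.28 and 10.27 with control siRNA. It showed the same order of the groups, with log2 differences of -3.02 with mix 2 and -1.84 with mix 1.

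KIF23, KIF20A, KIF4A and KIF14 organise the central spindle and the midbody during cytokinesis. KIF23, also called MKLP1, forms the centralspindlin complex with RACGAP1. KIF23 had 6.90, 6.40, 6.66 and 6.52 log2 with mix 2, 8.26, 8.04, 7.85 and 7.90 with mix 1 and 11.00, 10.96, 10.87 and 10.94 with control siRNA at its brighter probe set. This was the deepest fall of the 10 under each mix: 5% (95% interval 4.28 to 5.84%) of control was left with mix 2, 20-fold lower (log2 difference -4.32, SE 0.10, limma adjusted p = 1.45e-13). With mix 1 13.1% (95% interval 11.2 to 15.3%) was left, 7.62-fold lower (-2.93, SE 0.10, limma adjusted p = 7.58e-12). Counted from the lowest of 13225 genes, the log2 difference of KIF23 was number 5 with mix 2 and number 25 with mix 1, and that of KIF15 number 7 and number 102. KIF23 and KIF15 had overlapping 95% intervals with mix 2 (-4.55 to -4.10 and -4.34 to -3.97), so their order there is not established.

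The second KIF23 probe set had a mean over the 12 arrays of 5.32, under the filter value, and was left out of the tests above. It had 4.64, 3.64, 4.10 and 3.96 log2 with mix 2, 4.85, 4.84, 4.38 and 4.55 with mix 1 and 7.37, 7.22, 7.17 and 7.11 with control siRNA. Its groups were apart from control as well, and the knockdown arrays all lay below the filter value, where values approach background. Fitted without a filter, its log2 differences were -3.13 with mix 2, -2.56 with mix 1 and -0.57 between the mixes.

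KIF20A, also called MKLP2, carries the Aurora B complex to the central spindle. KIF20A had 9.51, 9.15, 9.54 and 9.28 log2 with mix 2, 9.85, 9.65, 9.70 and 9.82 with mix 1 and 11.28, 11.33, 11.20 and 11.21 with control siRNA. It kept 27.1% (95% interval 23.9 to 30.7%) of control with mix 2 and 35.4% (95% interval 31.2 to 40.1%) with mix 1, so that this close relative of KIF23 fell far less than KIF23, with intervals that did not overlap under either mix. KIF4A, a chromosome arm motor that also works with PRC1 at the midzone, had 8.24, 7.89, 8.08 and 8.05 log2 with mix 2, 9.22, 9.24, 9.37 and 9.15 with mix 1 and 10.78, 10.70, 10.72 and 10.67 with control siRNA. It kept 15.9% (95% interval 14.3 to 17.7%) with mix 2 and 36% (95% interval 32.3 to 40.2%) with mix 1. KIF4A has a near-identical relative, KIF4B, for which no probe set of its own was found here, so the signal of the 2 genes may be shared.

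KIF14 binds PRC1 and citron kinase at the midbody. At its brighter probe set KIF14 had 7.30, 6.99, 7.38 and 7.23 log2 with mix 2, 8.63, 8.59, 8.25 and 8.12 with mix 1 and 10.54, 10.60, 10.46 and 10.73 with control siRNA. At the other it had 6.33, 5.85, 6.32 and 6.30 log2 with mix 2, 7.64, 7.74, 7.33 and 7.38 with mix 1 and 9.73, 9.70, 9.77 and 9.94 with control siRNA. The 2 probe sets placed the groups in the same order, with log2 differences of -3.36 and -3.59 with mix 2 and -2.19 and -2.26 with mix 1. At the brighter one 9.76% (95% interval 8.22 to 11.6%) of control was left with mix 2 and 22% (95% interval 18.5 to 26.1%) with mix 1. All 12 probe sets of the 10 genes that passed the filter were called lower in a fit over probe sets, in which 32.2% of 24650 were called lower with mix 2 and 31.7% with mix 1.

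**Figure D3:**
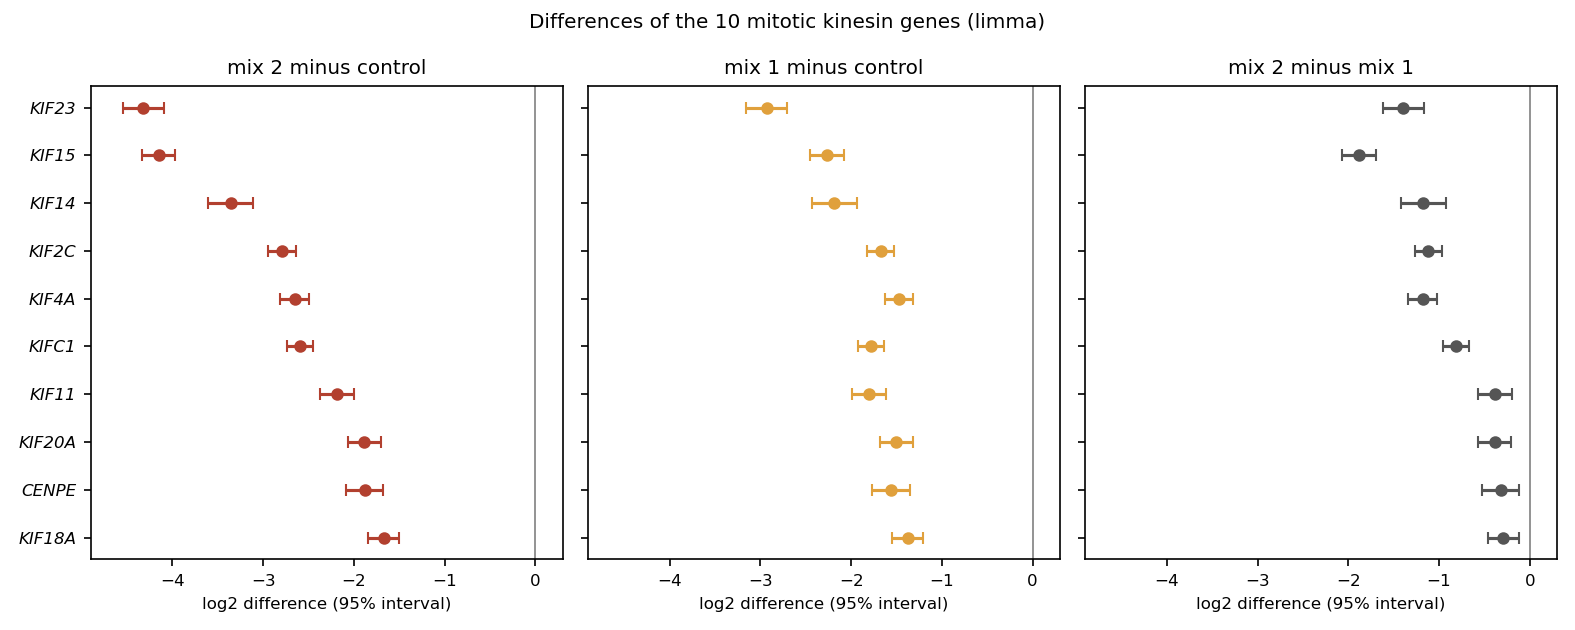
Log2 differences of the 10 genes (points) with 95% intervals from limma, for mix 2 minus control, mix 1 minus control and mix 2 minus mix 1, in order of the fall with mix 2. KIF23 lies lowest against control under each mix, and in the right panel KIF11, KIF20A, CENPE and KIF18A lie between -0.39 and -0.29 while the other genes lie at -0.82 or below.

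Mix 2 left less of every mitotic kinesin mRNA than mix 1 did. All 10 genes were called lower with mix 2 than with mix 1, where 25.0% of genes were called lower, and all 12 probe sets that passed the filter, where 25.6% were. In 8 of the 10 genes (all but KIF18A and CENPE) the mix 2 arrays lay below the mix 1 arrays without overlap, as they did in 21.7% of all genes. The median log2 difference between the mixes was -0.97 for the 10 genes and 0.025 for all genes.

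The size of this difference varied between the genes. It was largest for KIF15, which was 3.69-fold lower with mix 2 than with mix 1 (-1.89, SE 0.09, limma adjusted p = 3.33e-10), followed by KIF23 (-1.39), KIF4A (-1.18), KIF14 (-1.17), KIF2C (-1.12) and KIFC1 (-0.82). The intervals of KIF23, KIF4A, KIF14 and KIF2C overlapped one another, and that of KIFC1 overlapped that of KIF14. For KIF20A (-0.39), KIF11 (-0.38), CENPE (-0.32, limma adjusted p = 0.0114) and KIF18A (-0.29, limma adjusted p = 0.00613) it was smaller. The 95% intervals of these 4 genes ended at -0.57 at the lowest and that of KIFC1 at -0.67 at the highest. At the brightest probe sets the 4 thus stood apart from the other 6, a split drawn from these same values. The second KIF23 probe set, with knockdown arrays near background, was at -0.57 between the mixes and did not stand apart in this way. Against control KIF4A kept about as much as KIF20A with mix 1 (-1.47 and -1.50) and less than KIF20A with mix 2 (-2.65 and -1.89). The target mRNAs were not called different between mix 2 and mix 1. YAP1 was at -0.06 (limma adjusted p = 0.730) and WWTR1 at -0.12 (limma adjusted p = 0.344). Equal knockdown is not shown by this. YAP1 had an SD of 0.36 with mix 1 and 0.10 with mix 2, and protein was not measured.

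Averaged over the 10 genes, the arrays A to D stood at -2.62, -2.90, -2.67 and -2.81 log2 against the control mean with mix 2, -1.76, -1.82, -1.93 and -1.91 with mix 1 and 0.00, -0.01, -0.04 and 0.06 with control siRNA. The spread between replicates was thus small against the differences between groups. Mix 2 replicate B was the lowest mix 2 array in 8 of the 10 genes, and mix 1 replicate C the lowest mix 1 array in 5. Without mix 2 replicate B all 10 genes were still called lower than control and than mix 1. The 3′ to 5′ signal difference of the GAPDH control probe sets was 0.33 to 0.42 log2 with mix 2, 0.33 to 0.51 with mix 1 and 0.34 to 0.45 with control siRNA (exact permutation test, two-sided, p = 0.83 for mix 2 and 0.429 for mix 1 against control, n = 4 each; the smallest p possible is 0.0286). For ACTB it was 1.36 to 1.83 with mix 2, 1.61 to 2.24 with mix 1 and 1.38 to 1.99 with control siRNA (exact permutation test, two-sided, p = 0.343 for mix 2 and 0.314 for mix 1 against control, n = 4 each). By both measures the ranges of the groups overlapped, with the mean of mix 1 above control and that of mix 2 below it.

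The genes that were no members and lay closest to the mean course of the 10 over the 12 arrays were BUB1, GINS3, UBE2C, ERCC6L and CEP55. Likeness was the root mean square of the log2 distance from that course, with every gene set to 0 at its control mean. It was 0.06 for BUB1, a kinase of the spindle checkpoint, and 0.10 to 0.11 for the others, against 0.14 for KIFC1 and 1.23 for KIF23, each measured from the mean of the other 9 kinesins. UBE2C (-2.75 with mix 2 and -1.96 with mix 1) loads ubiquitin for the anaphase-promoting complex. CEP55 (-2.61 with mix 2 and -1.89 with mix 1) acts in the final cut between daughter cells, ERCC6L (-2.70 with mix 2 and -1.93 with mix 1) is a DNA translocase of anaphase bridges, and GINS3 (-2.71 with mix 2 and -1.88 with mix 1) is part of the replicative helicase. By this measure 190 genes outside the 10 lay within 0.5 of the mean course. The 12 arrays share groups and controls, so this likeness is a description.

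Among the kinesins with roles in mitosis outside the 10, KIF18B, KIF20B, KIF22 and KIF2A passed the filter, 4 of 7 listed. All 4 fell with both mixes (medians -1.89 with mix 2 and -1.41 with mix 1). Among all genes tested, 31.9% were called lower with mix 2 and 32.3% with mix 1. KIF18B, a motor that shortens astral microtubules, was at -3.27 with mix 2 and -1.91 with mix 1, and the chromosome arm motor KIF22 at -1.81 with mix 2 and -1.39 with mix 1. KIF20B, a relative of KIF20A, was at -1.98 with mix 2 and -1.44 with mix 1. KIF2A, which like KIF2C takes microtubules apart and is also used in cells that do not divide, differed from the others: it was at -0.73 with mix 2 and -1.16 with mix 1, and mix 2 left more of it than mix 1 (0.43, limma adjusted p = 9.38e-06). Without probe sets that may cross-hybridise KIF2A was at -0.40 with mix 2 and -0.92 with mix 1, and with the mean of its probe sets KIF22 was at -1.26 with mix 2 and -0.90 with mix 1.

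The mRNAs of proteins that bind or regulate the mitotic kinesins fell too. All 19 measured genes of the 20 listed were called lower with both mixes (medians -2.28 with mix 2 and -1.63 with mix 1). Of these, 16 were lower with mix 2 than with mix 1. Among all genes tested, 31.9% were called lower with mix 2, 32.3% with mix 1 and 25.0% with mix 2 against mix 1. RACGAP1, the partner of KIF23 in centralspindlin, was at -2.00 with mix 2 and -1.41 with mix 1. This was far less than KIF23 itself. PRC1, the midzone bundler that KIF4A and KIF14 bind, was at -2.69 with mix 2 and -2.11 with mix 1, and TPX2, which brings KIF11 and KIF15 to the spindle, at -2.52 with mix 2 and -1.62 with mix 1. Of the Aurora B complex that KIF20A carries, CDCA8 was at -3.41 with mix 2 and -2.41 with mix 1. AURKB was at -3.15 with mix 2 and -2.42 with mix 1, and BIRC5 at -2.13 with mix 2 and -1.28 with mix 1. INCENP was at -1.04 with mix 2 and -0.93 with mix 1. Its mean was 5.77 log2 with mix 2 and 5.88 with mix 1, close to the filter value, where a fall may be understated. The smallest falls were those of ECT2 (-0.45 with mix 2 and -0.61 with mix 1), an activator of RhoA at the cleavage site, and with mix 1 that of MAPRE1 (-1.60 with mix 2 and -0.33 with mix 1), which follows growing microtubule ends in all cells. A second MAPRE1 probe set was at -0.51 with mix 2 and -0.28 with mix 1, so the size of its fall with mix 2 differed between probe sets.

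The genes listed as transport kinesins did not move in 1 direction. They were cargo motors, light chains, an accessory subunit and some kinesins with other roles. Over all genes tested, 4848 of 13225 rose and 4222 fell with mix 2, and 4600 rose and 4278 fell with mix 1. Of 31 listed genes 24 passed the filter; 10 rose and 6 fell with mix 2, and 11 rose and 5 fell with mix 1, with medians of 0.15 and 0.16. Those that fell most by the mean of both mixes were KIF21A (-0.61 with mix 2 and -0.61 with mix 1), the widely used cargo motor KIF5B (-0.31 with mix 2 and -0.48 with mix 1) and KIFC3 (-0.39 with mix 2 and -0.36 with mix 1). KIF3C (1.28 with mix 2 and 1.39 with mix 1), KIF16B (1.56 with mix 2 and 0.72 with mix 1) and the light chain KLC1 (1.12 with mix 2 and 1.03 with mix 1) rose most. With the mean of its probe sets KIF16B was at 0.71 with mix 2 and 0.15 with mix 1, and without probe sets that may cross-hybridise KIF3C was at 1.12 with mix 2 and 0.84 with mix 1. The other 3 probe sets of KLC1 differed among themselves: one was at 1.05 with mix 2 and 0.62 with mix 1, one at 0.84 with mix 2 and -0.25 with mix 1, and one at -0.61 with mix 2 and -0.51 with mix 1. The minus-end motor dynein and its cofactor dynactin had 14 of 24 measured genes higher and 4 lower with mix 2, and 18 higher and 2 lower with mix 1 (medians 0.28 and 0.24), among them CAPZB (0.99 with mix 2 and 0.94 with mix 1) and DYNLRB1 (0.74 with mix 2 and 0.76 with mix 1). NDE1, a dynein regulator, was at -0.49 with mix 2 and -1.02 with mix 1; the mean of its probe sets moved the other way.

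**Figure D4:**
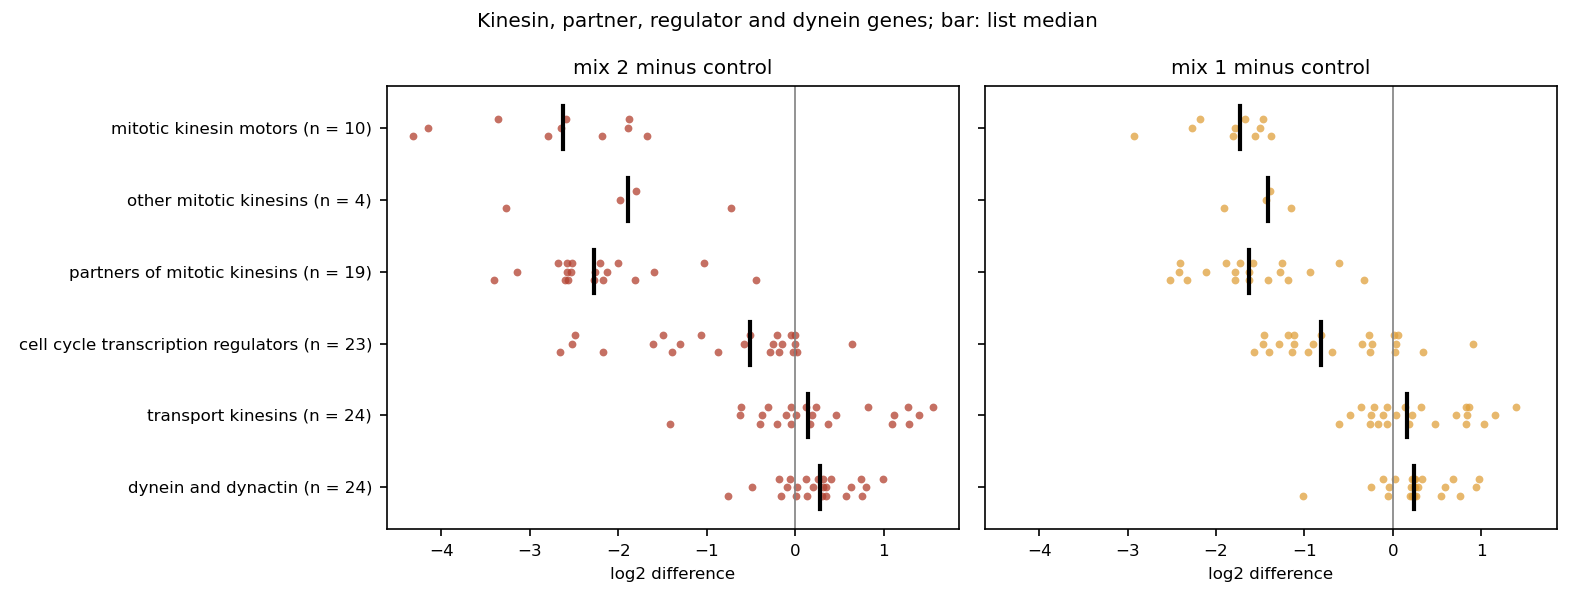
Log2 differences of single genes (dots) against control for mix 2 and mix 1, by list, with the list median as a bar; n is the number of genes that passed the filter. The mitotic kinesins, the other mitotic kinesins and the partners lie below 0 throughout, with medians of -2.62, -1.89 and -2.28 for mix 2, while transport kinesins and dynein genes lie on both sides of 0.

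Regulators of cell cycle transcription were listed as the factors that read the CHR, E2F, CCAAT and TEAD elements, with their pocket protein partners. Over all 13225 genes tested, 4222 fell and 4848 rose with mix 2, and 4278 fell and 4600 rose with mix 1. Of the 23 measured regulators 14 fell and 1 rose with mix 2 and 17 fell and 2 rose with mix 1 (medians -0.52 and -0.81). The 3 that fell most by the mean of both mixes were E2F5, LIN9 of the MuvB core and RBL1, which encodes the pocket protein p107. E2F5 was at -2.66 with mix 2 and -1.12 with mix 1, and LIN9 at -2.52 with mix 2 and -1.19 with mix 1. RBL1 was at -2.18 with mix 2 and -1.46 with mix 1. LIN9 averaged 5.73 log2 with mix 2, close to the filter value. The probe sets of LIN9 and E2F5 are of the class that may cross-hybridise. The genes that rose were RBL2 with mix 2 (0.64) and TEAD2 (0.91) and TEAD1 (0.34) with mix 1, which fall outside the naming rule and were chosen after their values were seen.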

How the data were processed

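RNA from 12 samples of MDA-MB-231 cells, 4 per siRNA group, was hybridised to Affymetrix arrays (Human Genome U133 Plus 2.0). The deposited values are on a log2 scale, 1 column per array, and come from RMA according to the submitters' processing notes, which name no software version. In its usual form RMA gives all arrays a common distribution, in which a shift of all mRNAs would not be seen; whether that step was run here is not stated. The depth of an array is not a count; the number of arrays limits precision.

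Symbols came from GEO's platform annotation, updated by gene ID through RefSeq (GRCh38.p14). Probe sets with 1 symbol and a mean above the 40th percentile (5.46 log2) were kept, and the brightest stood for its gene. limma 3.58.1 (R 4.3.3) was fitted with 3 group means on all 12 arrays, once over 13225 genes and once over 24650 probe sets, with default eBayes, two-sided p-values, Benjamini-Hochberg adjustment and a threshold of 0.05. The fit was run on simulated data with independent noise and changes planted in 200 genes, in mix 1 only. Far more genes were called in these data, so that run does not test the fit under such conditions.

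The members and lists were chosen with earlier results of these data known. Named genes were every member, YAP1, WWTR1, any gene of the lists of other mitotic kinesins and partners, the 5 genes nearest by likeness and, of the other lists, up to 3 per direction that passed under both mixes, by the mean of the 2 log2 differences. Same-letter arrays of mix 1 and control had deviations that correlated over genes at 0.370, 0.251, 0.409 and 0.340 for A to D, all above 0.1. For mix 2 and control they were 0.119, 0.0338, 0.0481 and 0.212, and for mix 2 and mix 1 0.273, -0.0853, 0.202 and 0.191. Pairing, which the labels do not state, was tried as an alternative. Other alternatives were other filters, probe set rules, scalings and variance models, fits of 2 groups and leaving out each array.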

Additional observations from a re-analysis of the deposited data

Results flagged for a closer look

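At the dimmer KIF14 probe set, mix 2 replicate B was set apart from the other mix 2 arrays, with 5.85 log2 against 6.30 to 6.33. Its gap was 0.938 of the range of the 4 arrays, above Dixon's critical value for 4 arrays. It was the only one of 39 sets of 4 arrays (13 probe sets in 3 groups) past that value, which chance passes in about 5% of sets. At the brighter KIF14 probe set the same array was also the lowest of mix 2 (6.99 log2), within the critical value.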

How the results depend on the processing

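Every log2 difference of the 10 genes kept its direction and its call under all alternatives that measured the gene, with a largest limma adjusted p of 1.6e-08 for mix 2 minus control, 1.37e-07 for mix 1 minus control and 0.0387 for mix 2 minus mix 1 (CENPE). With the replicate letter as a replicate block, 10 of 10 members and 12 of 12 probe sets were lower in each comparison, and no other call of a member changed. Without probe sets that can bind related transcripts, KIF18A, KIF23 and KIFC1 were not measured, 7 of 7 members were lower and the median between the mixes was -1.12 in place of -0.97; fewer genes were tested there. Under the same setting the partners had 11 lower genes of 11 with each mix and 8 between the mixes, the other mitotic kinesins 2 of 2 with each mix and 1 between the mixes, the dynein list 4 higher with mix 2, 8 higher and 1 lower with mix 1 and 3 higher between the mixes, and the transcription regulators 6 lower between the mixes (10 with all probe sets). KLC1 reversed with mix 1 (-0.25). With the mean of probe sets NDE1 reversed with mix 2 (0.35) and mix 1 (0.20), and 1 partner was higher with mix 2 than with mix 1. With quantile normalization 2 dynein genes in place of 4 were lower with mix 2. In the 250 bases before the start, the CHR, CCAAT, E2F and TEAD motifs were in 14.3%, 32.0%, 5.52% and 11.9% of promoter entries. The deposited values hold no depth, and levels near the filter value bound the size of falls such as that of KIF15.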

Other observations

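The subunits of the heterotrimeric cargo motor that serves cilia parted from each other and from the mitotic kinesins; they were chosen after their values were seen. The motor subunit KIF3B averaged 8.62 ± 0.09 log2 with mix 2, 10.86 ± 0.08 with mix 1 and 10.04 ± 0.06 with control siRNA (SD, n = 4 each). It was thus lower than control with mix 2 (-1.42, limma adjusted p = 4.91e-11) and higher with mix 1 (0.82, limma adjusted p = 2.39e-08), and its second probe set gave -1.25 with mix 2 and 0.99 with mix 1. The accessory subunit KIFAP3 averaged 10.88 ± 0.08 log2 with mix 2, 9.66 ± 0.10 with mix 1 and 9.48 ± 0.05 with control siRNA, higher with mix 2 (1.40) and with mix 1 (0.18, limma adjusted p = 0.0187). The other motor subunit, KIF3A, was at -0.37 with mix 2 (limma adjusted p = 0.0107) and 0.22 with mix 1 (limma adjusted p = 0.115), and its second probe set was at -0.01 and 0.03. The difference of mix 2 from mix 1 was -2.24 for KIF3B and 1.21 for KIFAP3.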
